A study of Mus musculus with 2 samples.

Results

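The nuclear genes of the mitochondrial respiratory chain and ATP synthase were compared between 2 libraries of cells freshly sorted from mammary glands of virgin adults at 8 weeks of age. The sort took Lin-, CD105+, CD31+, Sca1+ cells, a gate for vascular endothelium, and split them by Procr, a receptor for protein C. There was 1 Procr-positive and 1 Procr-negative library. No strain is given in the labels, nor whether animals were pooled. The genes were chosen by their deposited symbols (Nduf with a, b, c, s or v, the Sdh subunits, Uqcr, Cox4 to Cox8 and Atp5), without Ndufa4l2. This gave 89 of the 17333 genes listed in either library, of which 88 had reads in the Procr-positive and 89 in the Procr-negative library. Because each condition had 1 library, replicates cannot check any difference, and p-values are left out.

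Oxidative phosphorylation is carried out by 5 protein complexes in the inner mitochondrial membrane. Complexes I and II pass electrons from NADH and succinate to ubiquinone, complex III passes them on to cytochrome c, and complex IV passes them to oxygen. The proton gradient built on the way drives ATP synthase, complex V. All complexes but complex II are of double genetic origin, with a few subunits encoded in mitochondrial DNA and the others in the nucleus. Endothelial cells are known for meeting much of their energy demand by glycolysis, while their mitochondria also serve in signalling and biosynthesis. No gene with a mitochondrial (mt-) symbol was listed in either library, so only the nuclear side was analysed here.

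The Procr-positive library held 9.22 M reads assigned to genes and the Procr-negative library 9.57 M. Procr itself, the sorted marker, had 1321 RPKM (reads per kilobase of gene length, scaled to the library total) in Procr-positive and 147 RPKM in Procr-negative cells. The respiratory chain genes were deeply covered: 100 reads or more were counted for 75 of them in Procr-positive and for 76 in Procr-negative cells, with medians of 327 and 509 reads. The libraries differed widely in cell type markers, and this stands beside every result below. All 10 pan-endothelial markers were higher by 2-fold or more in Procr-positive cells, where they summed to 2630 RPKM, against 224 RPKM in the Procr-negative library. All 10 luminal epithelial markers were at least 2-fold lower, with sums of 697 RPKM in Procr-positive and 15638 RPKM in Procr-negative cells. The labelled endothelial identity was thus strong in the Procr-positive library, whereas epithelial keratin transcripts dominated the markers of the library labelled Procr-negative. Pericyte and smooth muscle markers were higher in 7 of 7 cases (1078 against 127 RPKM) and fibroblast markers lower in 5 of 5 (71.9 against 540 RPKM). Leukocyte markers were low, at 45.9 RPKM in sum in Procr-positive and 12.5 RPKM in Procr-negative cells. Basal epithelial markers summed to 91.1 against 165 RPKM. Adipocyte markers were low and mixed, with 1 higher (Plin1, 2.07 against 0.270 RPKM) and 1 lower (Cidea, 0.932 against 9.97 RPKM) and a median log2 ratio of 0.26. None of these markers was at 0 reads in either library. The part of these markers in the results on respiratory chain genes was not tested. In such pools, fewer cells of a type and less RNA per cell cannot be told apart.

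As a group, the respiratory chain genes were somewhat lower in the Procr-positive library, by about as much as the median gene was. Their reads made up 0.547% of the Procr-positive library (exact 95% binomial interval 0.542 to 0.552%) and 0.721% of the Procr-negative library (0.716 to 0.727%), so their summed share was 0.758-fold in the Procr-positive library (0.749 to 0.767). Of the 89 genes, 88 reached 1 RPKM in at least 1 library. The exception was Cox6a2, a heart and skeletal muscle isoform, with 0 reads in the Procr-positive and 2 reads in the Procr-negative library. The median log2 ratio (Procr-positive over Procr-negative, each as RPKM + 1) was −0.45 (interquartile range −0.65 to −0.18). That lies close to the median of −0.38 over all 12509 genes that reached 1 RPKM (interquartile range −0.96 to 0.34). Below the median of all genes were 54 of the 88 respiratory chain genes. A ratio below 0 was found for 79 of 88, beside 8161 of all 12509 genes.

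Few of the genes differed by 2-fold on this scale. Higher were 2 of 88 (2.27%), beside 13.1% of all genes tested, and lower were 9 of 88 (10.2%), beside 23.7% of all genes. Cox4i2, a subunit isoform of complex IV, was the gene furthest above 2-fold. The 9 lower genes were Ndufa7, Ndufab1, Ndufaf1, Ndufaf6 and Atp5sl of complex I, Uqcrc1 and Uqcrfs1 of complex III, Cox7a1 of complex IV and Atp5s of complex V. Smaller differences were mostly beyond counting error. The 95% counting interval of the ratio of library shares of reads lay below 1 for 64 of 88 genes, beside 55.2% of all genes, and above 1 for 5 of 88, beside 26.7% of all genes. Among these were Cox4i2, Cox6c, Ndufa8 and Ndufa1. Whether an interval excludes 1 also depends on read depth, and the respiratory chain genes were not matched to all genes in depth. Variation between animals, sorts and preparations is not in these intervals.

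The values near the 2-fold limit lay close together. Just inside it was Ndufa7, at a log2 ratio of −1.04, and just outside were Sdhd and Atp5g2, both at −0.995. The order of levels was nearly the same in both libraries, with a Spearman correlation of RPKM of 0.96 across the 89 genes, which is a description of libraries that share the listed gene lengths.

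**Figure D1:**
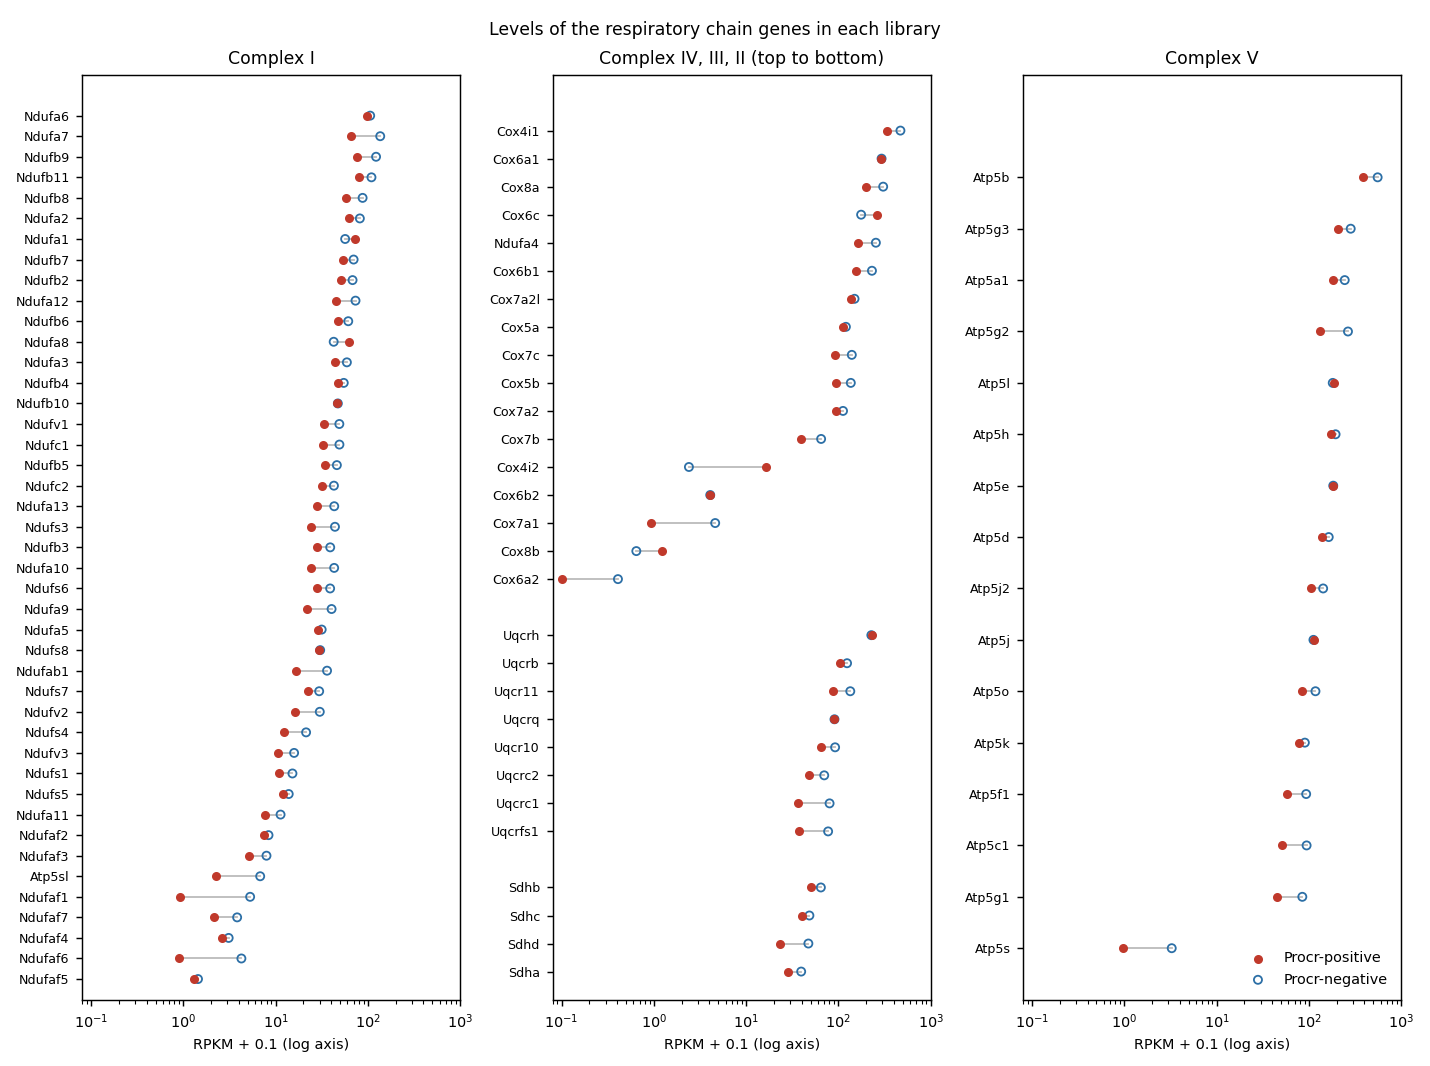
Levels of the respiratory chain genes reported here as RPKM + 0.1 on a log axis, with filled red points for the Procr-positive and open blue points for the Procr-negative library, ordered by mean level within each complex. Most pairs lie close together with the open point to the right; Cox4i2 is spread the other way.

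Complex I, NADH:ubiquinone oxidoreductase, is the largest of the set, with 44 genes here: 7 core subunits, 29 accessory subunits and 8 assembly factors. The core subunits carry the flavin and iron-sulfur clusters, the accessory subunits surround them, and the assembly factors build the complex without staying in it. Of the 44, 5 were lower at 2-fold, beside 23.7% of all genes, and the median log2 ratio was −0.45.

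The core subunits described here were lower in the Procr-positive library by point value, and none of them reached 2-fold. Ndufv2 had 218 reads (16.1 RPKM) in the Procr-positive and 422 reads (29.97 RPKM) in the Procr-negative library, and Ndufs3 had 24.0 against 43.8 RPKM. Ndufv1, which binds the flavin that accepts electrons from NADH, had 33.3 against 48.9 RPKM. Ndufs8 was nearly even, at 29.7 RPKM in Procr-positive and 30.3 RPKM in Procr-negative cells.

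The 29 accessory subunits had a median log2 ratio of −0.45, with 0 higher and 2 lower at 2-fold. Of all genes, 13.1% were higher and 23.7% lower. Ndufab1, the mitochondrial acyl carrier protein that also serves fatty acid synthesis, had 122 reads (16.5 RPKM) in the Procr-positive and 275 reads (35.9 RPKM) in the Procr-negative library. It was 2.17-fold lower (1.75 to 2.71). Ndufa7 had 65.5 RPKM in Procr-positive and 136 RPKM in Procr-negative cells and was 2.07-fold lower (1.80 to 2.39). Ndufa8 and Ndufa1 had counting intervals above 1. Ndufa8 stood at 61.5 against 42.4 RPKM (1.45-fold, 1.25 to 1.69), and Ndufa1, an X-linked subunit of the membrane arm, at 72.7 against 56.5 RPKM (1.29-fold, 1.10 to 1.51). Ndufa6, the accessory subunit with the highest level in the Procr-positive library, was nearly even at 98.6 against 106 RPKM. The others ranged from 7.62 RPKM (Ndufa11) to 79.5 RPKM (Ndufb11) in the Procr-positive library, against 11.2 RPKM (Ndufa11) to 122 RPKM (Ndufb9) in the Procr-negative library.

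The assembly factors were the least abundant genes of complex I, at 0.801 to 7.32 RPKM in the Procr-positive and 1.34 to 8.26 RPKM in the Procr-negative library. Of 8, 3 were 2-fold lower, beside 23.7% of all genes, and none was 2-fold higher, beside 13.1% of all genes. Their summed reads were 0.532-fold in the Procr-positive library (0.464 to 0.610). Ndufaf1, which acts in building the membrane arm, had 11 reads in the Procr-positive and 72 reads in the Procr-negative library (6.31-fold lower, 3.32 to 13.2). Ndufaf6 had 8 against 43 reads (5.18-fold lower, 2.41 to 12.8). Atp5sl, now named Dmac2 and known as an assembly factor of the distal membrane arm of complex I in spite of its older symbol, had 47 against 153 reads (3.14-fold lower, 2.25 to 4.45). Levels of Ndufaf2, Ndufaf4 and Ndufaf5 differed by less, with counting intervals that held 1. Ndufaf3, which stood at 5.07 against 7.85 RPKM, overlaps the exons of Impdh2 by 48 bases on the opposite strand in GENCODE M21. Impdh2 was at 309 against 101 RPKM, and the sources used here do not say whether the counting used strand, so reads of this pair cannot be told apart.

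Complex II, succinate dehydrogenase, is the link between the tricarboxylic acid cycle and the respiratory chain and is encoded by the nucleus alone. All 4 of its genes were lower by point value, beside 8161 of all 12509 genes, and none reached 2-fold. Of the catalytic pair, the flavoprotein gene Sdha had 28.5 RPKM in Procr-positive and 39.4 RPKM in Procr-negative cells (1.38-fold lower, 1.26 to 1.52), and the iron-sulfur gene Sdhb 50.7 against 64.5 RPKM (1.27-fold lower, 1.13 to 1.43). The membrane anchors were less alike. Sdhc had 40.7 against 48.4 RPKM (1.19-fold lower, 1.05 to 1.35). Sdhd had 23.2 against 47.2 RPKM (2.04-fold lower in its share of reads, 1.76 to 2.36). Relative to the median of all genes, Sdhb (0.039) and Sdhc (0.13) lay slightly above it on the log2 scale, and Sdha and Sdhd below. The anchors, which bind haem together, thus stood at similar levels in the Procr-negative library and apart in the Procr-positive library.

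In complex III, cytochrome bc1, 7 of 8 genes were lower by point value, beside 8161 of all 12509 genes. Of the 8, 2 were 2-fold lower (Uqcrc1 and Uqcrfs1), beside 23.7% of all genes. Uqcrc1, a core subunit, had 558 reads (36.3 RPKM) in the Procr-positive and 1277 reads (80.2 RPKM) in the Procr-negative library, and was 2.21-fold lower (1.996 to 2.44). Uqcrfs1, the Rieske iron-sulfur protein that takes part in electron transfer, had 447 reads (36.9 RPKM) against 971 reads (77.3 RPKM), 2.09-fold lower (1.87 to 2.35). Uqcrc2, the partner of Uqcrc1, was at 47.4 against 70.2 RPKM (1.48-fold lower, 1.35 to 1.62). These genes had similar levels within each library, and all were lower in the Procr-positive one.

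The 5 small subunits of complex III were more abundant per length, at 65.5 to 228 RPKM in the Procr-positive and 90.6 to 228 RPKM in the Procr-negative library, and none reached 2-fold. Uqcrh, the hinge protein, was even, with 1184 reads in the Procr-positive and 1223 in the Procr-negative library (1.004-fold, 0.926 to 1.09). Uqcrq, which lies near the ubiquinone sites, was at 88.5 against 90.6 RPKM and Uqcrb at 105 against 124 RPKM. Uqcr11 was at 88.3 against 135 RPKM (1.52-fold lower, 1.33 to 1.74). Summed reads were 0.874-fold for the small subunits (0.830 to 0.920) and 0.564-fold for the core pair (0.528 to 0.602). Cyc1, the cytochrome c1 gene, belongs to this complex but not to the symbol rule, and it was singled out after its values were seen. It stood at 34.5 RPKM in Procr-positive and 67.9 RPKM in Procr-negative cells (1.97-fold lower, 1.74 to 2.23).

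**Figure D2:**
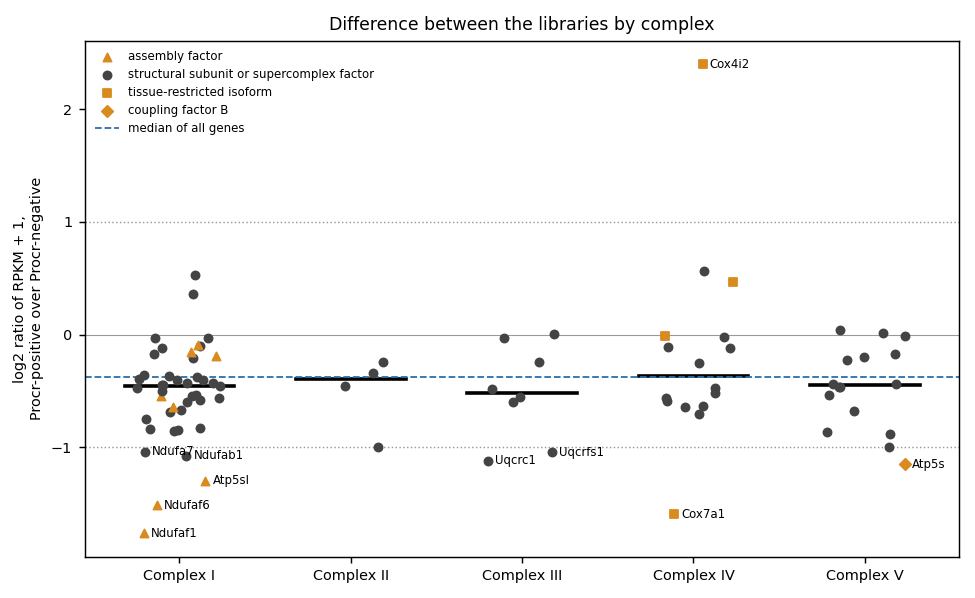
Log2 ratio (Procr-positive over Procr-negative, each as RPKM + 1) for the genes reported here with at least 1 RPKM, by complex. Circles are structural subunits, triangles assembly factors, squares tissue-restricted isoforms and the diamond coupling factor B, black bars are medians of each complex, which lie between −0.52 (complex III) and −0.37 (complex IV), the dashed line is the median of all genes at −0.38, and dotted lines mark 2-fold.

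Complex IV, cytochrome c oxidase, reduces oxygen to water, and its nuclear subunits adjust the activity of a catalytic core encoded in mitochondrial DNA. It counted 17 genes here, among them Ndufa4, which is named for complex I but is known as a subunit of complex IV. The 11 broadly expressed subunits had a median log2 ratio of −0.52. None was 2-fold higher or lower, beside 13.1% higher and 23.7% lower of all genes. Cox4i1, whose product is needed for assembly and binds ATP, was the most abundant, with 2114 reads (338 RPKM) in the Procr-positive and 3055 reads (470 RPKM) in the Procr-negative library. Cox7b was at 39.5 against 64.9 RPKM (1.64-fold lower, 1.46 to 1.86). Ndufa4 was at 163 against 255 RPKM (1.56-fold lower, 1.43 to 1.72), and Cox8a at 197 against 306 RPKM (1.55-fold lower, 1.43 to 1.68). Cox6b1 was at 156 against 231 RPKM (1.48-fold lower, 1.35 to 1.63). Cox6a1, unlike these, was even at 289 against 294 RPKM (0.984-fold, 0.915 to 1.06).

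Cox6c was the exception among the broad subunits. It had 1270 reads (261 RPKM) in the Procr-positive and 889 reads (176 RPKM) in the Procr-negative library and was 1.48-fold higher (1.36 to 1.62). Its exons overlap those of Vps13b on the opposite strand by 250 bases, and Vps13b was at 6.15 against 7.59 RPKM. The part of this overlap in the value of Cox6c was not tested. Cox7a2l, known as a factor that joins complexes III and IV in supercomplexes, was at 137 against 150 RPKM (0.918-fold, 0.855 to 0.985). Its log2 ratio of −0.12 lay above the median of all genes.

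Several subunits of complex IV exist as isoforms from separate genes, a broad one and one restricted to certain tissues. Of the restricted isoforms, Cox4i2 had the largest difference. Cox4i2, an isoform known for expression in lung and for its link to oxygen sensing, had 110 reads (16.4 RPKM) in the Procr-positive and 16 reads (2.30 RPKM) in the Procr-negative library. This made it 7.13-fold higher (4.20 to 12.9), while Cox4i1 was 1.39-fold lower (1.32 to 1.47). Per length, Cox4i2 amounted to 4.86% of the level of Cox4i1 in Procr-positive cells (3.98 to 5.89% by counting error) and 0.489% in Procr-negative cells (0.279 to 0.796%). Cox4i1 thus made up most of the subunit 4 transcripts in both libraries. Cox4i2 lies on chromosome 2 at 152753916 to 152765039 (GRCm38).

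The gene left out by the symbol rule, Ndufa4l2, is a relative of Ndufa4 that is known to be induced by hypoxia, and it went the way of Cox4i2. It had 459 reads (50.5 RPKM) in the Procr-positive and 37 reads (3.92 RPKM) in the Procr-negative library and was 12.9-fold higher (9.20 to 18.5). Both genes are also known from pericytes, whose markers were all higher in the Procr-positive library as given above, with Rgs5 at 187 against 12.8 RPKM. The part of those cells in the values of Cox4i2 and Ndufa4l2 was not tested.

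The muscle and testis isoforms had few reads in both libraries, from 0 (Cox6a2) to 20 (Cox6b2) in Procr-positive and from 2 (Cox6a2 and Cox8b) to 21 (Cox6b2) in Procr-negative cells. As a limit of detection, 3 reads on a gene of 1 kb correspond to 0.325 RPKM in Procr-positive and 0.314 RPKM in Procr-negative cells. Cox7a1, the heart and muscle isoform that is also abundant in brown fat, had 3 reads in the Procr-positive and 17 reads in the Procr-negative library (0.183-fold, 0.0344 to 0.633). Cox8b, with a like distribution, had 4 against 2 reads, and its counting interval of 0.297 to 22.9 allows a difference in either direction. Cox6b2, known from testis, had 20 against 21 reads. Relative to their broad partners these isoforms stayed under 5% per length in both libraries. For Cox7a1 the share of the Cox7a2 level was 0.883% in the Procr-positive and 4.03% in the Procr-negative library. Striated muscle markers summed to 4.91 RPKM in Procr-positive and 3.87 RPKM in Procr-negative cells. The 2 that reached 1 RPKM went opposite ways. Mb had 3 reads in the Procr-positive and 32 reads in the Procr-negative library, and Myl1 had 35 against 3 reads. Ckm, Myh1 and Myh2 were at 0 in the Procr-negative library, and Myh4 was listed in neither. The remaining isoforms looked for, Cox7b2 and Cox8c, were not listed in either library.

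**Figure D3:**
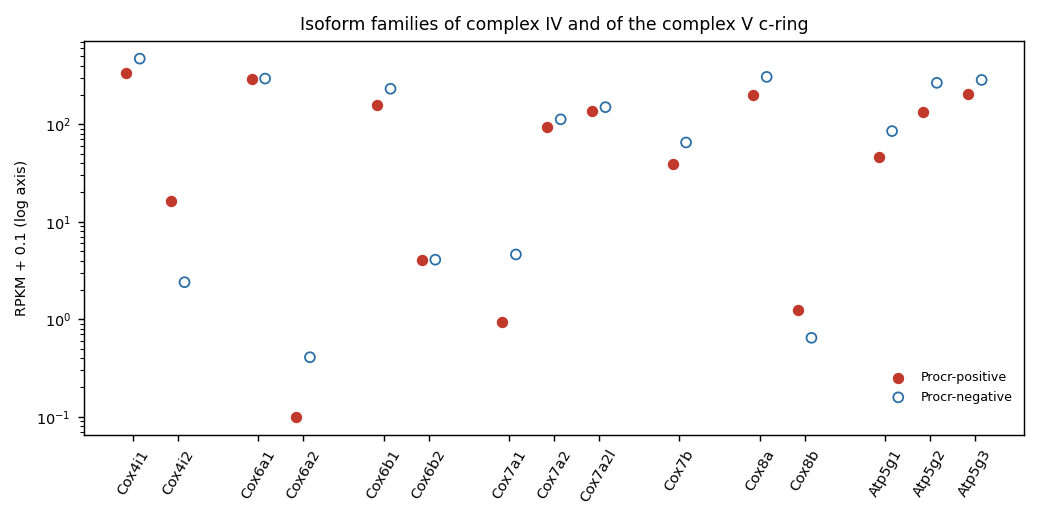
Levels of the isoform families of complex IV and of the c-ring of complex V as RPKM + 0.1 on a log axis, with filled red points for the Procr-positive and open blue points for the Procr-negative library. Cox4i2 stands at 16.4 RPKM in Procr-positive and 2.30 RPKM in Procr-negative cells, while the broad isoforms and c-ring genes are level or lower in the Procr-positive library.

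Complex V, ATP synthase, couples a proton-driven ring in the membrane to the catalytic F1 head. Its 16 genes had a median log2 ratio of −0.45, with 0 higher and 1 lower at 2-fold. Of all genes, 13.1% were higher and 23.7% lower. The F1 subunit genes Atp5b and Atp5a1, which form the catalytic hexamer, had the most reads of all respiratory chain genes. Atp5b had 6631 reads (383 RPKM) in the Procr-positive and 10011 reads (557 RPKM) in the Procr-negative library (1.46-fold lower, 1.41 to 1.501). Atp5a1 had 181 against 245 RPKM (1.35-fold lower, 1.30 to 1.41). Atp5c1, the central shaft that turns in the head, was at 51.4 against 94.5 RPKM (1.84-fold lower, 1.69 to 1.9998), whereas Atp5e, the smallest F1 subunit, was even at 182 against 184 RPKM. Shaft and head genes of F1 therefore did not share a single ratio.

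The ring of c subunits that carries protons is encoded by Atp5g1, Atp5g2 and Atp5g3, which give the same mature protein with different import sequences. All were lower by point value, beside 8161 of all 12509 genes. Their reads summed to 0.604-fold in the Procr-positive library (0.574 to 0.635). Atp5g2 had 792 reads (133 RPKM) in the Procr-positive and 1644 reads (266 RPKM) in the Procr-negative library (2.001-fold lower in its share of reads, 1.84 to 2.18). Atp5g1 was at 45.5 against 84.9 RPKM (1.87-fold lower, 1.63 to 2.13) and Atp5g3 at 205 against 284 RPKM (1.39-fold lower, 1.29 to 1.49). Atp5g3 led in both libraries. Per length, Atp5g2 stood at 64.7% of Atp5g3 in the Procr-positive library (59.2 to 70.8%) and at 93.4% in the Procr-negative library (87.4 to 99.9%), so the make-up of the c-ring transcripts differed by more than counting error.

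The peripheral stalk, which holds the head still against the ring, had 4 genes with log2 ratios from −0.68 (Atp5f1, now Atp5pb) to 0.01 (Atp5j). Atp5j had 831 reads (113 RPKM) in the Procr-positive and 855 reads (112 RPKM) in the Procr-negative library. The membrane subunits Atp5l, Atp5k and Atp5j2 lay between −0.44 and 0.04, and Atp5l was even at 187 against 182 RPKM. Atp5s, now Dmac2l and known as coupling factor B, was at much lower levels than the subunits. It had 12 reads (0.876 RPKM) in the Procr-positive and 45 reads (3.17 RPKM) in the Procr-negative library (3.61-fold lower, 1.88 to 7.51).

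Promoters of respiratory chain genes are known for binding sites of NRF1, of ETS factors such as GABP and of YY1, and sequences are shown to place these letters beside the values above. RefSeq promoters on GRCm38.p6, from 250 bases before to 50 after the start, were at hand for 75 of the 89 genes (81 promoters). The letters GCATGCGC (NRF1), CCGGAAG (ETS) and AAGATGGCG (YY1) were searched on both strands, and the motifs do not contain each other. GCATGCGC was found in 14.8% of these promoters, beside 2.71% of all 32851 promoters of the same length and 4.90% of those of genes with at least 1 RPKM. CCGGAAG was found in 20.99%, beside 8.86% and 17.0%, and AAGATGGCG in 11.1%, beside 1.40% and 2.90%. Shown are Uqcrc1 (chr9:108936398-108936697, plus strand), among the genes lowest in the Procr-positive library, and 2 even genes, Cox6a1 (chr5:115348909-115349208, minus strand) and Atp5j (chr16:84834927-84835226, minus strand), each 5′ to 3′ on the strand of the gene with the matches in capitals.
Uqcrc1: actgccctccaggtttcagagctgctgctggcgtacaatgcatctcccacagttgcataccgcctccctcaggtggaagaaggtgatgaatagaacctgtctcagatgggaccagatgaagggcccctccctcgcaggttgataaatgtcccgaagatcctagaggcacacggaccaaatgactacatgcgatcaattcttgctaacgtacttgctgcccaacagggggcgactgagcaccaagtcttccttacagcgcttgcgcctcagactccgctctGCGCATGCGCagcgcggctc
Cox6a1: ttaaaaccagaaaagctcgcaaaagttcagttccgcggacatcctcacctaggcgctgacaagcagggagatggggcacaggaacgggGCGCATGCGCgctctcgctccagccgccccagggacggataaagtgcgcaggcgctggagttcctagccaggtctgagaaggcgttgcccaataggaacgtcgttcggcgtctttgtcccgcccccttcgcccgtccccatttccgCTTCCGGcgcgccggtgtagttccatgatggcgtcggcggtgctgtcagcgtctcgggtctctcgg
Atp5j: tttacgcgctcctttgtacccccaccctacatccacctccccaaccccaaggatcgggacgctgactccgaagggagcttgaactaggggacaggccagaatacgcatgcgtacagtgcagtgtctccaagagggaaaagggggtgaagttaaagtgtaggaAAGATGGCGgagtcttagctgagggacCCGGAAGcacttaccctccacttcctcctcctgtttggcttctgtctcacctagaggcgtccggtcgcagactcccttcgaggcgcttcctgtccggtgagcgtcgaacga
In Uqcrc1 the capitals are a pair of overlapping NRF1 matches, in Cox6a1 such a pair followed by an ETS match, and in Atp5j a YY1 match followed by an ETS match. Another promoter of Atp5j (chr16:84835576-84835875, minus strand) held no match and is not shown. Annotated exons of Atp5j overlap those of Gabpa, which encodes the DNA-binding subunit of GABP, by 397 bases on the opposite strand, so the reads of this pair are uncertain too. Gabpa was at 18.8 RPKM in Procr-positive and 16.5 RPKM in Procr-negative cells.

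Genes with and without a match overlapped in their differences. The 12 genes with an NRF1 match had log2 ratios from −1.12 to 0.52 with a median of −0.19, the 17 with an ETS match a median of −0.34, and the 8 with a YY1 match a median of −0.52. The 44 genes without a match of any kind had a median of −0.50. A match is a description of the letters and not a sign of binding.

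Genes that work beside the respiratory chain were also mostly level or lower in the Procr-positive library. Of 15 electron carriers and adenylate exchange genes, 0 were higher and 4 were lower at 2-fold, beside 13.1% higher and 23.7% lower of all genes. Their median log2 ratio was −0.65. The 4 lower genes were Vdac1, the main pore of the outer membrane (60.6 RPKM in Procr-positive and 199.6 RPKM in Procr-negative cells), Etfa, which feeds electrons from fatty acid oxidation (23.3 against 61.7 RPKM), Atpif1, the inhibitor of ATP synthase (71.3 against 183 RPKM), and the pyrophosphatase gene Ppa2 (5.401 against 17.3 RPKM). By less than 2-fold, the adenine nucleotide carriers Slc25a4 (1.62-fold, 1.48 to 1.76) and Slc25a5 (1.21-fold, 1.15 to 1.27) and the cytochrome c gene Cycs (1.16-fold, 1.08 to 1.26) were higher. Of 16 tricarboxylic acid cycle genes, 0 were higher and 2 were lower at 2-fold, beside the same 13.1% and 23.7% of all genes. Their median was −0.70. Fh1, fumarase, was at 16.4 against 39.4 RPKM and Suclg1, a succinyl-CoA ligase subunit, at 14.3 against 37.5 RPKM.

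Further assembly factors outside the symbol rule numbered 39, of which 32 were listed under the symbols searched. Of those listed, 31 reached 1 RPKM. Among these, 0 were higher and 5 were lower (Nubpl, Atpaf1, Coa3, Coa5 and Coa6), with a median of −0.54. Over all genes, 13.1% were higher and 23.7% were lower. Coa5 had the largest difference, at 3.43 RPKM in Procr-positive and 15.2 RPKM in Procr-negative cells (4.44-fold lower, 3.64 to 5.45).

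Of 15 measured regulators of mitochondrial biogenesis, 1 was higher and 2 were lower at 2-fold, beside 13.1% higher and 23.7% lower of all genes, with a median log2 ratio of −0.52. Gabpb1, the partner subunit of Gabpa in GABP, had 74.9 RPKM in Procr-positive and 27.7 RPKM in Procr-negative cells (2.71-fold higher, 2.50 to 2.93). Peo1, the mitochondrial DNA helicase, had 4.38 against 20.4 RPKM and Ssbp1, which binds single-stranded mitochondrial DNA, 2.70 against 7.79 RPKM.

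Of these pathway lists, oxygen-dependent regulators had the most genes higher in the Procr-positive library, 4 of 10, beside 13.1% of all genes, with 0 lower at 2-fold and a median of 0.13. The higher genes were Cox4i2 and Ndufa4l2, as above, and the hypoxia-inducible factor genes Epas1 (160 RPKM in Procr-positive and 16.4 RPKM in Procr-negative cells) and Hif1a (203 against 89.4 RPKM). Epas1 is also known as an abundant gene of endothelium. The list was chosen with earlier results known and holds Cox4i2 and Ndufa4l2, already described above, so its count is a description only. Of the others, Bnip3 was higher by less than 2-fold (1.52-fold, 1.12 to 2.06). The rest of the list was lower by less than 2-fold. Among these were the prolyl hydroxylase genes Egln3 (1.88-fold lower, 1.52 to 2.33) and Egln1 (1.295-fold lower, 1.05 to 1.60). Higd1a (1.72-fold lower, 1.41 to 2.10) and Pdk1 (1.60-fold lower, 1.27 to 2.04) were others. Of 8 measured uncoupling and antioxidant genes, 1 was higher and 2 were lower at 2-fold, near the 13.1% and 23.7% of all genes. Higher was Sod2, the superoxide dismutase of mitochondria (49.7 against 23.8 RPKM). Lower were the peroxiredoxin genes Prdx3 and Prdx5 (9.08 against 31.1 RPKM and 55.6 against 136 RPKM). The median of this list was −0.45.

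**Figure D4:**
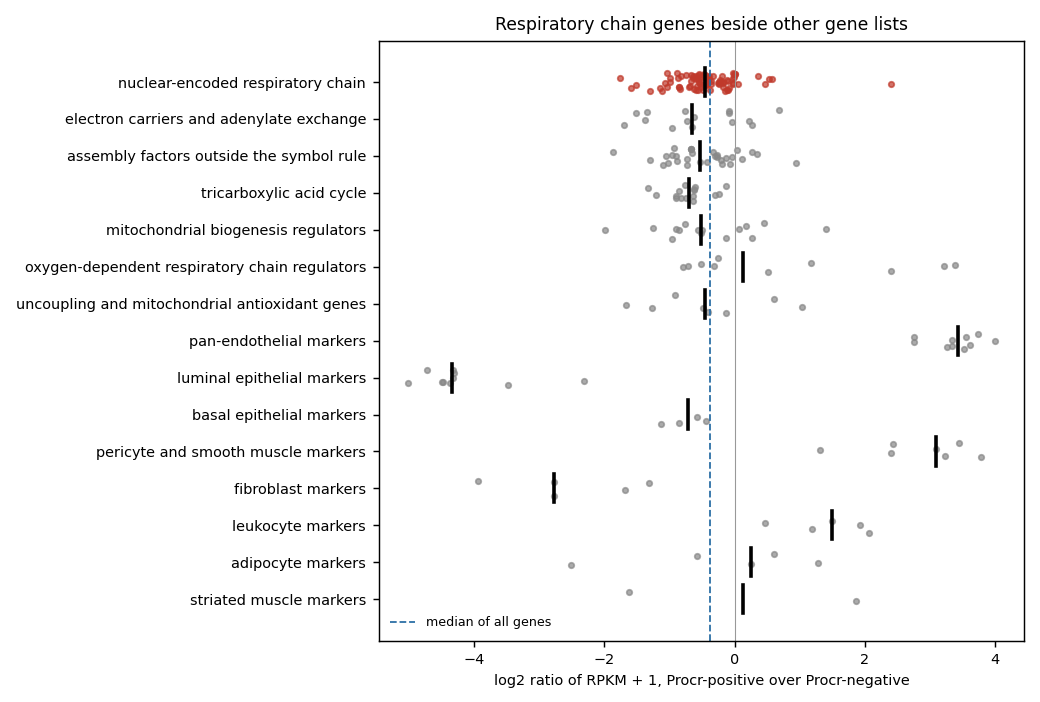
Log2 ratio (Procr-positive over Procr-negative, each as RPKM + 1) for genes with at least 1 RPKM in each list, with black bars as medians and the median of all genes as a dashed line at −0.38. The respiratory chain genes in red have a median of −0.45 and span −1.76 to 2.40, beside medians of 3.42 for pan-endothelial and −4.35 for luminal epithelial markers.

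Levels of some genes are limited by how reads were assigned. Of the 89 genes, 21 overlap another listed gene by annotated exons. In 4 genes, Ndufa11, Ndufa13, Ndufs5 and Cox7b, under 50% of the listed length was covered by reads in both libraries in spite of at least 50 reads in each, and their level per length is uncertain. Respiratory chain genes are also known for processed pseudogenes, and reads that fit both a gene and its copy are dropped by unique mapping.

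With the median of all genes (−0.38) set to 0, the respiratory chain median was −0.074, with 2 genes higher and 3 lower at 2-fold. Over all genes the same centring gave 2426 genes higher and 1644 lower, against 1643 higher and 2964 lower on the deposited scale. The medians of complexes I, II, III and V remained below 0 under every scaling tried, and that of complex IV turned to 0.013 with this centring. The median of all genes was itself below 0 with TPM (−0.37) and with upper-quartile scaling (−0.10). With upper-quartile scaling, complexes II (−0.072) and IV (−0.036) lay above the median of all genes and the other complexes below it.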

How the data were processed

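Total RNA of the sorted cells was extracted with Trizol and sequenced as single reads on an Illumina instrument, and reads mapped uniquely to mm10 were used, per the labels' protocols. The authors deposited, per the file headers, the count of unique reads per gene, the RPKM and the percent of the gene length covered. The deposited RPKM equals the count over gene length and library total. No aligner, counting tool or use of strand is named in the sources used here. Genes not listed in a library were given 0 reads. Log2 ratios of RPKM + 1 were computed for genes that reached 1 RPKM in either library, with 2-fold as the limit. Ratios of library shares of reads have exact conditional binomial (Clopper-Pearson) 95% intervals, which cover counting error only. Copies made by PCR are not independent molecules, so the intervals may be too narrow even for counting error. Python 3.11.15 with pandas 2.3.3, numpy 2.4.6 and scipy 1.17.1 was used, and the code was tested on simulated data. Exon overlaps were taken from GENCODE M21 and promoters from RefSeq (GRCm38.p6). Named genes were, per complex, the 3 highest and 3 lowest ratios among genes reaching 5 RPKM and 50 reads, the 3 highest mean levels, every gene past 2-fold and every isoform family. Core subunits and assembly factors named besides these, genes of the lists under 2-fold, overlapping neighbours and Rgs5 were chosen after their values were seen. The genes, lists and rules were chosen with earlier results of these data known. Alternatives were other pseudocounts, filters, scalings and a limit on the counting interval. The values of 1 gene in the set, which enters the counts and medians, are not reported here.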

Additional observations from a re-analysis of the deposited data

How the results depend on the processing

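Centred on the median of all genes, 3 respiratory chain genes were 2-fold lower (Ndufaf1, Ndufaf6 and Cox7a1), against 9 on the deposited scale, their median log2 ratio was −0.074, and 1644 of all genes were lower. With upper-quartile scaling 4 of the genes were lower and their median was −0.13, and with TPM the median was −0.42. Centring moves every gene by the same constant. Upper-quartile scaling and TPM apply a single factor per library before the pseudocount is added, so well-expressed genes move nearly alike. With upper-quartile scaling Atp5a1 went from −0.44 to −0.11 and Cox6c from 0.56 to 0.90. Asking that the counting interval exclude 2-fold left 3 lower genes. In alternatives chosen after seeing the data, the 67 genes with no exon overlap gave 1 higher gene and a median of −0.49, and the 75 structural subunits gave 1 higher and 4 lower. The structural set leaves out Cox4i2, Cox7a1, Atp5s and the assembly factors Ndufaf1, Ndufaf6 and Atp5sl, all past 2-fold on the deposited scale. Other pseudocounts and filters kept each count within 1.5 times. No gene past 2-fold changed direction under these settings. No paired analysis was possible because each condition had 1 library, and for the same reason no replicate could be left out. The depth limits genes under about 50 reads, such as Cox7a1 and Cox8b. The spread between animals is unknown, and strand use in the counting limits genes that overlap a neighbour.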
